A study of Mus musculus with 8 samples.

Results

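The genes of the glutamate receptors and of the subunits that travel with them were examined in whole brains of wild-type mouse embryos at E14.5. The set held 34 of the 33971 genes listed, taken by gene name. It comprised 4 AMPA receptor subunits, 5 kainate receptor subunits, 7 NMDA receptor subunits, *Grid1* of the delta class, 7 metabotropic receptors and 10 auxiliary subunits. Wild-type females mated to wild-type males received either a choline-deficient diet (CDD, 4 embryos) or normal chow (ND, 4 embryos). The strain and the number of dams or litters were not stated, and the descriptions differ on whether CDD began at mating or before it. If the 4 embryos of a diet were littermates, p-values measure the spread within a litter and diet cannot be told apart from dam. Messenger RNA was captured by its poly-A tail and sequenced in bulk, so fewer cells of a type and less RNA per cell cannot be told apart.

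Glutamate is the main excitatory transmitter of the brain. AMPA, kainate and NMDA receptors are ion channels built from several subunits, whereas metabotropic receptors signal through G proteins. In the embryonic brain these receptors appear before most synapses have formed, and they are known for roles in the migration of young neurons, in the growth of their processes and in the first synapses. Auxiliary subunits bind the channels, carry them to the membrane and set how fast they open and close.

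CDD brains had lower levels of many glutamate receptor genes. Members past the threshold fell by 14.52% (*Grm4*) to 34.88% (*Grin2c*, near the floor of detection). They belonged to the AMPA, NMDA, metabotropic and auxiliary classes. No kainate receptor subunit was called by the main edgeR fit, whereas DESeq2 and the edgeR fit without a filter on low counts called *Grik1* lower (adjusted p = 0.0379 and 0.0284). Of the 33 members with enough reads to be tested, 14 were lower in CDD at an adjusted p under 0.05 (edgeR, adjusted over 19367 genes) and 0 were higher by edgeR, DESeq2 or limma-voom. That is 42.4% of the members, beside a background of 4.59% of all genes tested called lower and 4.24% called higher. At an unadjusted p under 0.05, 19 members were past the threshold, all of them lower, beside 12.1% of all genes tested lower and 11.8% higher at that p. The log2 fold change of CDD over ND was below 0 in 31 of 33 members, the exceptions being *Grin3b* (0.27) and *Neto2* (0.01), whereas 50.91% of all genes tested were below 0. The median log2 fold change was -0.15 for the members and -0.0038 for all genes tested. In 14 members every CDD brain was below every ND brain, against 7.39% of all genes, and in 0 members every CDD brain was above every ND brain, against 7.65% of all genes. The remaining member, *Grm6*, the receptor of retinal ON bipolar cells, had between 0 and 9 reads per brain and was not tested.

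The number of members called depended on single brains. It was 6 without ND replicate 3, 8 without ND replicate 1 and 8 without ND replicate 4, in fits where 1.36%, 1.98% and 1.72% of all genes were called lower. *Grin1*, *Grin2d*, *Grm5*, *Gria1*, *Cnih3* and *Cacng3* were called lower in all 8 fits that left out a brain.

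**Figure D1:**
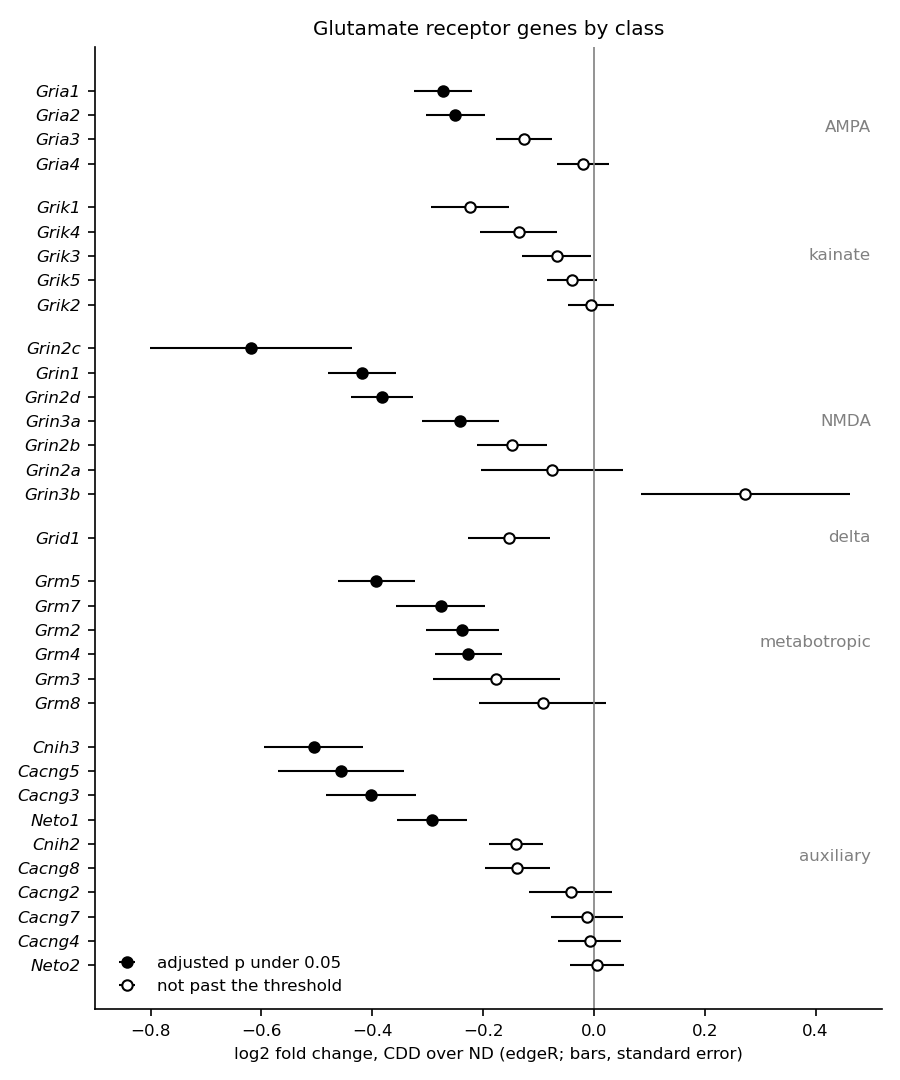
Log2 fold change of CDD over ND for the 33 members tested (horizontal axis), 1 gene per line and grouped by class, with bars for the standard error of the edgeR fit and filled points for an adjusted p under 0.05. All 14 filled points lie left of 0, and none belongs to the kainate class.

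The levels of these genes at E14.5 spanned a wide range. Levels are compared between genes only as FPKM, the authors' reads per kilobase of listed gene length, scaled for library size. *Cnih2*, a cornichon that binds AMPA receptors, was at the top with 187 ± 11.7 FPKM in CDD and 205 ± 5.08 in ND (mean ± SD, n = 4 in each diet, here and below). Next came the AMPA receptor auxiliary subunits *Cacng4* (79.0 in CDD and 79.1 in ND) and *Cacng7* (58.6 and 58.9) and the kainate receptor subunit *Grik5* (53.7 ± 2.02 and 55.1 ± 1.55). Among the AMPA subunits *Gria2* was the highest, with 29.4 ± 1.44 FPKM in CDD and 34.8 ± 1.67 in ND. *Grin2b* led the NMDA class (10.1 ± 1.14 and 11.2 ± 0.524) and *Grm5* the metabotropic class (6.28 ± 0.605 and 8.22 ± 0.686). *Grin2a*, *Grin2c*, *Grin3b* and *Grm8* stayed under 1 FPKM in both means. Across the 33 members tested, Spearman's correlation of the log2 fold change was 0.341 with mean FPKM and 0.0144 with listed length, a description over genes that share the same libraries.

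**Figure D2:**
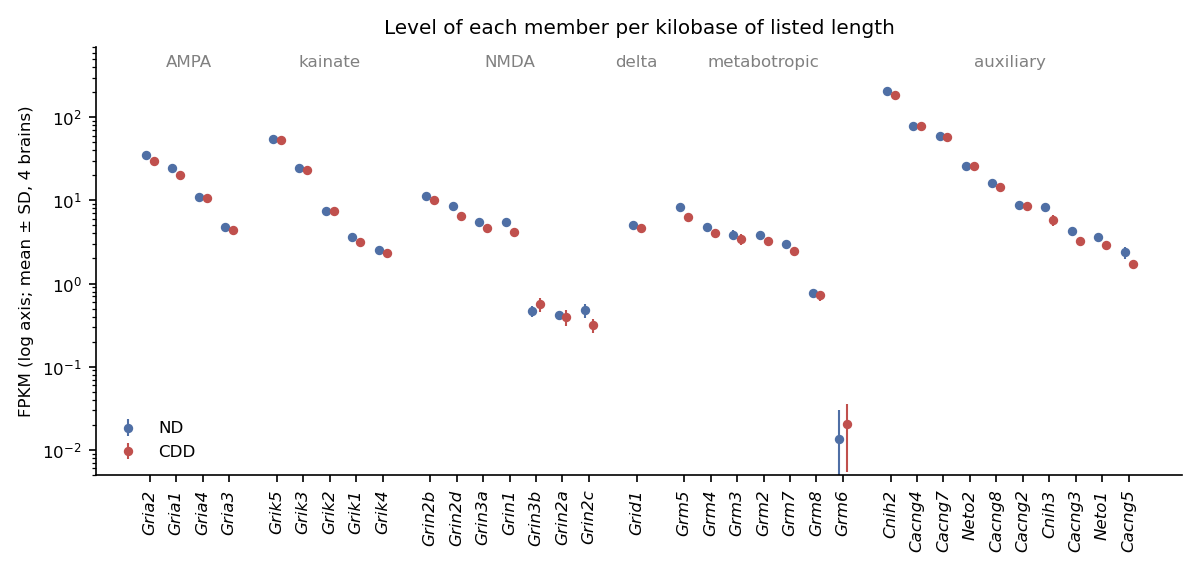
FPKM of all 34 members (vertical axis, log scale), by class and in falling order within a class, as the mean and SD of 4 ND and 4 CDD brains. *Cnih2* stands highest (205 in ND) and *Grm6* lowest (0.0135 in ND).

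Promoters are printed for members called lower, as a description. Whether these genes share a regulator was not tested. Of the called members with an entry, those with the smallest adjusted p in the AMPA, NMDA, metabotropic and auxiliary classes are shown. The sequences are those of RefSeq in GRCm38.p6, 250 bases before to 50 after the gene start, 5′ to 3′ on the gene's strand, and 23 of the 34 members matched (28 promoters). No entry was used for *Gria1*, *Gria3*, *Grik1*, *Grin2a*, *Grin2b*, *Grin3a*, *Grid1*, *Grm4*, *Grm5*, *Cacng4* and *Neto1*. Capitals mark the half-sites of RE1, the element bound by the neuronal gene repressor REST. They were searched as the exact letters CAGCACC and GGACAG on both strands, so near matches are not marked. The regions are chr3:80802786-80803085 (minus strand) for *Gria2*, chr2:25319138-25319437 (minus) for *Grin1*, chr7:45866632-45866931 (minus) for *Grin2d*, chr9:106656060-106656359 (minus) for *Grm2* and chr1:181352378-181352677 (plus) for *Cnih3*.
Gria2: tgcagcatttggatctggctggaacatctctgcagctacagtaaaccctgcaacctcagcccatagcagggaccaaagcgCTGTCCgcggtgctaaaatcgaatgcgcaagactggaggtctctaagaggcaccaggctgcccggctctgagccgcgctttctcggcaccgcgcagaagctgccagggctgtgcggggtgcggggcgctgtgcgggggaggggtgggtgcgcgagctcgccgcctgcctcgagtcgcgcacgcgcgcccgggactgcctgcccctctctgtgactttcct
Grin1: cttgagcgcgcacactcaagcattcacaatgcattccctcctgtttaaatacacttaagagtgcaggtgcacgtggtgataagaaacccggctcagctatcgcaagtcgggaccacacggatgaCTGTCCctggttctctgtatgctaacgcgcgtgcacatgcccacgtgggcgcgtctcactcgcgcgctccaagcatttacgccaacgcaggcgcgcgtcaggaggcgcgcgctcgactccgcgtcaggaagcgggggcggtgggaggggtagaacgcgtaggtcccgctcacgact
Grin2d: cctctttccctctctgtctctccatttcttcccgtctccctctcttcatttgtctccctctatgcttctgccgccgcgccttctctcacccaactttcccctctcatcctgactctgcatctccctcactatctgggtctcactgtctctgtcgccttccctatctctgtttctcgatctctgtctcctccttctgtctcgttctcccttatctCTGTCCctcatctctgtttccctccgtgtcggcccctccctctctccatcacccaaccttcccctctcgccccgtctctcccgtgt
Grm2: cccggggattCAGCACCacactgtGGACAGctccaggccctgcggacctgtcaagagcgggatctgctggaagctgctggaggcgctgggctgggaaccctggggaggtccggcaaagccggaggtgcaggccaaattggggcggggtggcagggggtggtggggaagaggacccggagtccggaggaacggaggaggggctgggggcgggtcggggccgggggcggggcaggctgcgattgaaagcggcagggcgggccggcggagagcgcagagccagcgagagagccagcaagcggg
Cnih3: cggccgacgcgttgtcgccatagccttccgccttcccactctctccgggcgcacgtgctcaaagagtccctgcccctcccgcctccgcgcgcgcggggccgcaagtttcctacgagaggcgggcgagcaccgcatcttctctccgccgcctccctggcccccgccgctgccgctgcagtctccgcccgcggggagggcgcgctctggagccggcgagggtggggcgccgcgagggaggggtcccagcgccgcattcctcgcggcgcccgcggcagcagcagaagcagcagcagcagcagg
CAGCACC stood in 1 of the 28 member promoters, that of *Grm2*, and in 7.14% of all 32851 promoters. GGACAG stood in 9 of the 28, which belong to *Gria2*, *Grin1*, *Grin2d*, *Grin3b*, *Grm2*, *Grm8*, *Cacng5* and *Cacng8*, and in 22.2% of all promoters. Of these genes, *Grin3b*, *Grm8* and *Cacng8* were not called lower. *Grm2* held both as exact matches, in order and at most 9 bases apart, as did 34 of all promoters (0.103%). Near matches were not counted. In *Gria2* the marked CTGTCC is followed by gcggtgcta. There ggtgcta differs only in its last letter from GGTGCTG, which is CAGCACC on the other strand. *Grm2* is therefore not shown to be the only member with such a pair. The CG dinucleotide occurred 26 times in the promoter of *Gria2*, 33 times in that of *Grin1*, 12 times in that of *Grin2d*, 22 times in that of *Grm2* and 42 times in that of *Cnih3*. Its median was 16 over the member promoters and 7 over all promoters.

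AMPA receptors carry most fast excitatory transmission, and *Gria1* and *Gria2* were lower in CDD. Values per brain are given as CPM, the count scaled to a common library size after TMM normalization. *Gria1*, which encodes GluA1, had 113, 117, 129 and 129 CPM in the CDD brains and 141, 138, 158 and 152 CPM in the ND brains. The diets did not overlap. Its log2 fold change was -0.27 ± 0.05 (SE) and it fell by 17.2% (adjusted p = 0.00445, edgeR). *Gria2* encodes GluA2, the subunit that limits calcium entry once its transcript is edited, and had 478, 429, 477 and 449 CPM in CDD and 536, 513, 555 and 576 CPM in ND. Every CDD brain was again below every ND brain. The log2 fold change of *Gria2* was -0.25 ± 0.05 (adjusted p = 0.00732), with adjusted p = 0.0525 without ND replicate 3.

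*Gria3*, for GluA3, had 43.0, 44.1, 43.1 and 43.2 CPM in CDD and 49.8, 44.9, 46.4 and 48.1 CPM in ND. Its groups did not overlap either, but the gap between CDD replicate 2 and ND replicate 2 was small. The log2 fold change of -0.13 ± 0.05 did not pass the threshold (adjusted p = 0.125). *Gria4*, for GluA4, ranged from 64.3 to 72.2 CPM in CDD and from 67.1 to 73.0 CPM in ND, with a log2 fold change of -0.02 ± 0.05 (adjusted p = 0.856). As a share of the summed FPKM of the AMPA class, *Gria4* made up 16.7% ± 1.06 in CDD and 14.6% ± 0.442 in ND, without overlap.

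Kainate receptors act on both sides of the synapse and tune transmitter release. In the main edgeR fit none of the 5 subunits was called in either direction. *Grik5*, the most abundant of them, encodes the high-affinity subunit GluK5 and had 271, 278, 294 and 272 CPM in CDD and 284, 286, 298 and 278 CPM in ND. These values overlapped, and the log2 fold change was -0.04 ± 0.05 (adjusted p = 0.652). *Grik1*, for GluK1, had 21.3, 22.3, 21.4 and 19.1 CPM in CDD and 22.7, 23.4, 27.4 and 24.5 CPM in ND. Here the diets did not overlap, although CDD replicate 2 and ND replicate 1 were close. With a log2 fold change of -0.22 ± 0.07, *Grik1* lay just outside the threshold in the main edgeR fit (adjusted p = 0.0549). It lay inside the threshold in DESeq2 (adjusted p = 0.0379) and in edgeR without a filter on low counts (adjusted p = 0.0284). Over the alternatives its adjusted p was between 0.0284 and 0.239. The other kainate subunits gave log2 fold changes of -0.14 ± 0.07 (*Grik4*), -0.07 ± 0.06 (*Grik3*) and -0.01 ± 0.04 (*Grik2*).

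NMDA receptors need glycine as well as glutamate and pass calcium when the membrane is depolarised. In this class 4 of 7 genes were lower in CDD. *Grin1* encodes GluN1, the subunit that every NMDA receptor contains, and had 37.2, 44.2, 41.4 and 37.8 CPM in CDD against 52.6, 49.8, 57.1 and 55.2 CPM in ND. The highest CDD brain was below the lowest ND brain. With a log2 fold change of -0.42 ± 0.06, *Grin1* fell by 25.2% (adjusted p = 0.000902). *Grin2d* encodes GluN2D, a glutamate-binding subunit of immature neurons and interneurons, and had 45.9, 43.3, 44.7 and 40.1 CPM in CDD and 54.1, 54.1, 60.4 and 58.3 CPM in ND. The diets did not overlap. *Grin2d* fell by 23.3% (log2 fold change -0.38 ± 0.06, adjusted p = 0.000902).

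*Grin2c*, for the mainly cerebellar GluN2C, was near the floor of detection, with 2.05, 1.48, 1.42 and 1.39 CPM in CDD and 2.49, 1.88, 2.98 and 2.35 CPM in ND. CDD replicate 1 overlapped the ND brains. Its log2 fold change was -0.62 ± 0.18 (adjusted p = 0.0406), and its adjusted p rose to as much as 0.177, without ND replicate 3, and was past 0.05 without any 1 of CDD replicates 2, 3 or 4 or ND replicates 1, 3 or 4. *Grin3a* encodes GluN3A, a glycine-binding subunit of juvenile receptors, and had 49.96, 63.6, 54.0 and 62.6 CPM in CDD and 68.3, 62.6, 71.2 and 69.8 CPM in ND. CDD replicates 2 and 4 reached the lowest ND brain. The log2 fold change was -0.24 ± 0.07 (adjusted p = 0.0434), with adjusted p between 0.0902 and 0.155 without CDD replicate 1, CDD replicate 3 or ND replicates 1, 3 or 4.

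*Grin2b* encodes GluN2B, the main glutamate-binding subunit of the fetal forebrain, and had 226, 249, 244 and 290.0 CPM in CDD and 268, 268, 295 and 287 CPM in ND. CDD replicate 4 lay among the ND brains and the other CDD brains lay below them. The log2 fold change was -0.15 ± 0.06 (adjusted p = 0.159), and without CDD replicate 4 it was -0.22 (adjusted p = 0.00522). *Grin2a*, which encodes GluN2A of mature synapses, ranged from 5.83 to 8.52 CPM in CDD and from 6.70 to 8.00 CPM in ND (log2 fold change -0.08 ± 0.13). *Grin3b* had at most 2.18 CPM in any brain (log2 fold change 0.27 ± 0.19, adjusted p = 0.410). Within the summed FPKM of the NMDA class, *Grin1* held 15.5% ± 1.19 in CDD and 17.2% ± 0.188 in ND, and *Grin2b* held 37.8% ± 2.56 and 34.9% ± 0.494, both without overlap. *Grid1*, the delta receptor gene of synapse adhesion, had 24.997, 30.2, 27.4 and 27.3 CPM in CDD and 28.3, 27.4, 33.5 and 32.9 CPM in ND. The diets overlapped, and *Grid1* had a log2 fold change of -0.15 ± 0.07 and did not pass the threshold (adjusted p = 0.216).

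The metabotropic receptors had 4 of 6 tested genes lower in CDD. *Grm5*, coupled to phospholipase C and the highest of the class, had 56.5, 71.2, 64.8 and 65.7 CPM in CDD and 85.2, 74.7, 91.1 and 88.2 CPM in ND. The groups did not overlap, and CDD replicate 1 was the lowest brain. With a log2 fold change of -0.39 ± 0.07, *Grm5* fell by 23.9% (adjusted p = 0.00436). *Grm2*, one of the receptors that inhibit adenylyl cyclase and whose promoter is printed above, had 15.7, 15.9, 17.0 and 15.8 CPM in CDD and 19.5, 19.0, 17.9 and 19.6 CPM in ND. No CDD value reached an ND value. Its log2 fold change was -0.24 ± 0.07 (adjusted p = 0.0298).

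*Grm4* and *Grm7* encode presynaptic receptors that inhibit transmitter release. *Grm4* had 23.2, 25.7, 25.02 and 24.6 CPM in CDD and 27.3, 29.1, 30.8 and 28.0 CPM in ND. Its groups were separate, with a log2 fold change of -0.23 ± 0.06 (adjusted p = 0.0264). *Grm7* had 12.5, 16.6, 14.98 and 14.2 CPM in CDD and 17.3, 18.04, 17.0 and 18.4 CPM in ND. Its highest CDD brain was just under its lowest ND brain, and the log2 fold change was -0.28 ± 0.08 (adjusted p = 0.0384). The calls of *Grm2*, *Grm4* and *Grm7* were each lost without CDD replicate 1 or without any single ND brain, with adjusted p values up to 0.104, 0.137 and 0.121, those of *Grm2* also without CDD replicate 2 and *Grm7* also without CDD replicate 4. *Grm3* (-0.18 ± 0.11) and *Grm8* (-0.09 ± 0.11) had wider errors on the log2 scale and were not called.

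**Figure D3:**
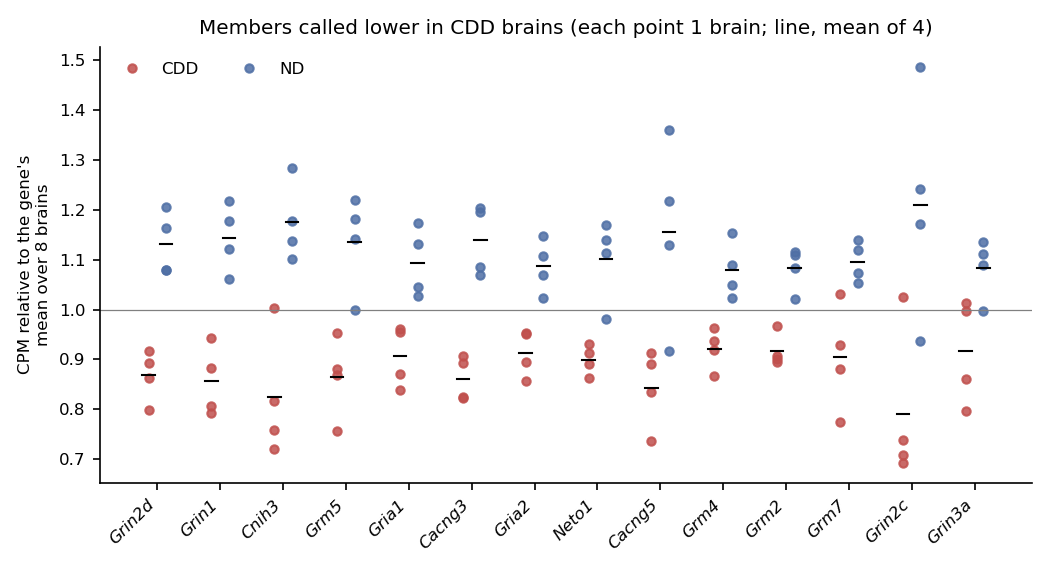
CPM of the 14 members called lower, each divided by the gene's mean over the 8 brains (vertical axis, no unit), with 1 point per brain and a line at the mean of 4. The CDD and ND points are separate in 12 of the genes and overlap in *Grin2c* and *Grin3a*.

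The auxiliary subunits were divided. The cornichons *Cnih2* and *Cnih3* carry AMPA receptors through the secretory pathway and slow their closing. *Cnih3* had 14.1, 15.9, 19.6 and 14.8 CPM in CDD and 23.0, 21.5, 25.04 and 22.2 CPM in ND, without overlap. Its log2 fold change was -0.51 ± 0.09 and it fell by 29.6% (adjusted p = 0.0029). *Cnih2* had 246, 266, 274 and 239 CPM in CDD and 285, 273, 291 and 282 CPM in ND. CDD replicate 3 reached the lowest ND brain, and the log2 fold change of -0.14 ± 0.05 was outside the threshold in edgeR (adjusted p = 0.0821), inside it in DESeq2 (adjusted p = 0.0471), and inside it in edgeR without CDD replicate 3 (adjusted p = 0.0309).

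The *Cacng* genes encode the transmembrane AMPA receptor regulatory proteins. *Cacng3* had 8.60, 9.50, 9.34 and 8.63 CPM in CDD and 12.6, 11.2, 11.4 and 12.5 CPM in ND. The 4 CDD values lay close together and below all ND values. The log2 value of *Cacng3*, CDD over ND, was -0.40 ± 0.08 (adjusted p = 0.00548). *Cacng5* had 7.03, 7.22, 6.60 and 5.82 CPM in CDD and 8.92, 7.25, 9.63 and 10.8 CPM in ND. CDD replicate 2 was almost level with ND replicate 2, the lowest ND brain. Its log2 fold change was -0.46 ± 0.11 (adjusted p = 0.0183), with adjusted p of 0.0511, 0.0771 and 0.0925 without ND replicates 1, 3 and 4. *Cacng4* (log2 fold change -0.01 ± 0.06), *Cacng7* (-0.01 ± 0.06) and *Cacng2* (-0.04 ± 0.07) were not called, nor was *Cacng8* (-0.14 ± 0.06, adjusted p = 0.148).

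*Neto1* encodes a protein that binds NMDA and kainate receptors, and had 23.7, 25.5, 25.04 and 24.4 CPM in CDD and 30.5, 26.9, 32.1 and 31.3 CPM in ND. The groups did not overlap. Its log2 fold change was -0.29 ± 0.06 (adjusted p = 0.00869), with adjusted p = 0.0579 without ND replicate 3. *Neto2*, which binds kainate receptors, ranged from 147 to 175 CPM in CDD and from 155 to 162 CPM in ND, with a log2 fold change of 0.01 ± 0.05 (adjusted p = 0.959).

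The classes were set side by side by their summed FPKM in each brain and by the median log2 fold change of their members. Classes are small and their members are not replicates, so these are descriptions and differences between classes were not tested. The AMPA sum was 63.4, 62.7, 66.9 and 65.7 FPKM in the CDD brains and 73.2, 70.7, 77.4 and 77.5 FPKM in the ND brains. The NMDA sum was 24.98, 27.3, 26.4 and 28.2 FPKM in CDD and 31.1, 30.2, 33.9 and 32.8 FPKM in ND. The metabotropic sum was 18.1, 21.9, 20.2 and 21.01 FPKM in CDD and 24.1, 22.9, 25.6 and 25.4 FPKM in ND. In these 3 classes every CDD brain was below every ND brain. The kainate sum was 86.4, 87.2, 93.7 and 92.0 FPKM in CDD and 90.7, 92.8, 95.9 and 92.3 FPKM in ND, and the auxiliary sum was 387 ± 17.6 FPKM in CDD and 412 ± 9.85 FPKM in ND. Both overlapped. The median log2 fold change was -0.24 for NMDA, -0.23 for metabotropic, -0.19 for AMPA, -0.14 for auxiliary and -0.07 for kainate members. The ratio of the AMPA sum to the kainate sum was 0.720 ± 0.00916 in CDD and 0.804 ± 0.0323 in ND, and that of the NMDA sum to the kainate sum was 0.298 ± 0.0149 and 0.344 ± 0.0139, both without overlap. The ratio of the metabotropic sum to the kainate sum overlapped (0.226 ± 0.0186 and 0.263 ± 0.0122). The auxiliary sum was 5.99 ± 0.304 times the AMPA sum in CDD and 5.52 ± 0.179 times in ND, every CDD brain being above every ND brain. That sum also holds *Neto1* and *Neto2*, which bind NMDA or kainate receptors, so it does not stand for AMPA receptor partners alone. *Cnih2* by itself made up 48.2% ± 1.06 of the auxiliary sum in CDD and 49.8% ± 0.0763 in ND. In the kainate sum, *Grik5* made up 59.8% ± 1.64 in CDD and 59.3% ± 1.05 in ND. *Grik3* made up 25.8% ± 2.05 and 26.1% ± 0.94 of it. Ratios to the kainate sum thus follow mainly *Grik5* and *Grik3*, and say little of *Grik1* and *Grik4*. The ratio of the NMDA sum to the AMPA sum overlapped (0.413 ± 0.0222 and 0.428 ± 0.00672).

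**Figure D4:**
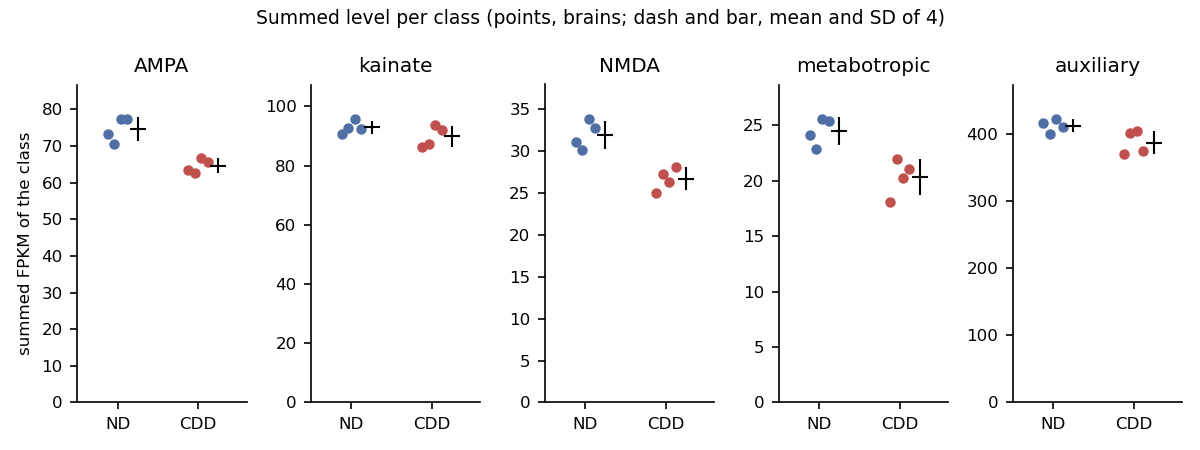
Summed FPKM of the members of each class (vertical axis, from 0, with its own scale in each panel) in 4 ND and 4 CDD brains, with the mean and SD beside the points. The diets are separate for the AMPA, NMDA and metabotropic classes and overlap for the kainate and auxiliary classes.

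Other genes of glutamate signaling were read from a list of 37, all tested, of which 8 were lower and 1 was higher in CDD (21.6% and 2.7%, median log2 fold change -0.10). Of the transporters that clear glutamate, the neuronal *Slc1a1* (log2 fold change -0.36 ± 0.07) and *Slc1a6* (-0.48 ± 0.11) were lower, whereas *Slc1a2*, a transporter of glia, was higher (0.27 ± 0.05, adjusted p = 0.00287). *Slc1a3*, also a transporter of glia and higher in mean FPKM (16.6 against 13.7), was not called (0.03 ± 0.06, adjusted p = 0.820). None of the 3 vesicular glutamate transporters was called (median log2 fold change 0.11). Among 22 assembly and clustering partners, *Grip2* (-0.47 ± 0.08), a scaffold of GluA2, *Shisa9* (-0.25 ± 0.06), *Nptxr* (-0.25 ± 0.06) and *Shisa7* (-0.17 ± 0.05) were lower. *Adarb1*, the enzyme that edits the *Gria2* transcript, was lower (-0.24 ± 0.05, adjusted p = 0.0103), as 1 of 3 editing enzymes.

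Markers of cell types were read beside these results. Of 13 neuron markers, *Snap25* (-0.23 ± 0.06) and *Gap43* (-0.18 ± 0.05) were lower and 0 were higher, with a median log2 fold change of 0.02 and a summed level between 1917 and 2198 FPKM in CDD and between 2011 and 2081 FPKM in ND. None of these markers was at 0 in any brain. With the libraries scaled on the neuron markers, 10 of the 33 members were called lower and 0 higher, beside 2.67% of all genes called lower, and the median log2 fold change of the members was -0.17. *Grin2c*, *Grm2*, *Grm4* and *Grm7* no longer passed the threshold, with log2 fold changes of -0.63, -0.26, -0.25 and -0.30 under that scaling. Of 12 markers of neural progenitors, 7 were higher. These were *Nes* (0.47 ± 0.08), *Pax6* (0.25 ± 0.05), *Vim* (0.21 ± 0.05) and *Top2a* (0.44 ± 0.07), *Mki67*, *Ccnb1* and *Pcna*, the last 4 being genes of any dividing cell. *Sox2*, *Hes1*, *Hes5*, *Notch1* and *Fabp7* were not called, and *Fabp7* was below 0 (-0.04 ± 0.05). The summed level of the 12 markers was 610 to 656 FPKM in CDD and 563 to 596 FPKM in ND. Of 5 markers of oligodendrocyte precursors, *Olig1* (-0.50 ± 0.08) and *Pdgfra* (-0.31 ± 0.07) were lower, and the summed level was 23.8 to 28.3 FPKM in CDD and 29.9 to 34.4 FPKM in ND, with no marker at 0. The part of the progenitors and oligodendrocyte precursors in the receptor result was not tested. Of 6 glutamatergic neuron markers *Neurod2* was lower (-0.20 ± 0.06), and of 7 GABAergic neuron markers *Slc32a1* was lower (-0.19 ± 0.05) and *Gad2* higher (0.16 ± 0.05).

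**Figure D5:**
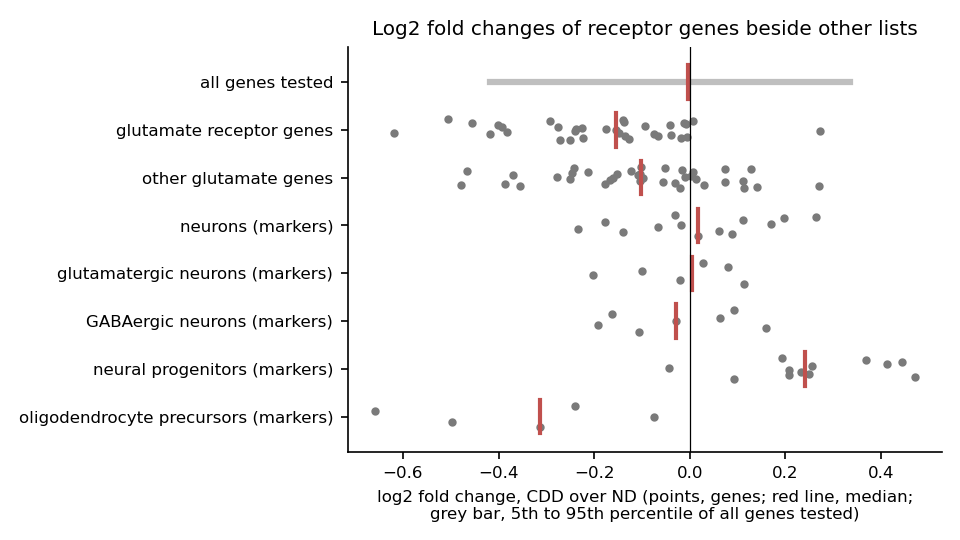
Log2 fold change of CDD over ND (horizontal axis) of each gene in the receptor set, in the list of other glutamate genes and in the marker lists of neurons, neuron types, progenitors and oligodendrocyte precursors, with red lines at the medians and a grey bar from the 5th to the 95th percentile of all genes tested. The receptor median lies at -0.15, that of the neuron markers at 0.02 and that of the progenitor markers at 0.24.

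Library totals were between 31770217 and 43121170 counts, and each brain of a diet differed from the others by more than sampling noise. CDD replicate 2 stood apart in 6 Hox genes of the caudal hindbrain and spinal cord, with a summed 31.9 FPKM beside 0 to 0.0201 FPKM in the other 7 brains. Without it 12 of 33 members were called lower beside 3.99% of all genes, and the median log2 fold change of the members was -0.20. *Grin2c* and *Grm2* no longer passed the threshold, with log2 fold changes of -0.59 and -0.23. Blood genes were highest in ND replicate 3 (3726 FPKM, others 799 to 2005) and choroid plexus genes in CDD replicate 1 (382 FPKM, others 136 to 254), with 0 of 5 genes of each list called. Of the eye and retina markers 2 of 4 were higher, of the endothelium markers 1 of 5 was lower, and of the meningeal fibroblast markers 2 of 5 were lower and 1 was higher. Some members overlap genes on the opposite strand, and the strand setting of the counting was not given. *Grin2d* overlaps *Kdelr1* (log2 fold change -0.02 ± 0.05), *Grin1* overlaps *Grin1os* (-0.22 ± 0.14), *Cnih2* overlaps *Yif1a* (-0.05 ± 0.07), and *Grin3b*, at a mean of 60.1 counts, overlaps *Tmem259* at a mean of 4492 counts, so the value of *Grin3b* is uncertain.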

How the data were processed

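Whole E14.5 brains of 4 CDD and 4 ND embryos were grouped by diet as their labels give it. Values the authors deposited were raw counts of reads for each gene, a normalized signal (counts divided by a size factor per library) and FPKM made from that signal and the listed gene length. They also deposited their own log2 fold changes, p-values and adjusted p-values of this comparison, which were not used. The submitters' processing notes name HISAT2 2.0.5, featureCounts 1.5.0-p3 and DESeq2 1.20.0 without a role. The genome build is not given in the sources used here. Since 2 of 34 members had the same start in GENCODE M21 (GRCm38), deposited coordinates were used only to find overlapping genes.

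Counts were filtered with filterByExpr of edgeR 4.0.16, scaled by TMM and tested with the robust quasi-likelihood test (diet as the single term, Benjamini-Hochberg adjusted p under 0.05 over 19367 genes). CPM are TMM-scaled. R 4.3.3, DESeq2 1.42.0, limma 3.58.1, Python 3.11.15, pandas 2.3.3 and matplotlib 3.10.9 were used. Totals were 31770217 to 43121170 counts, and the common biological coefficient of variation was 0.0814. Counting error stays large for members of low count, such as *Grin2c* with 46 to 103 counts per brain. Members and lists were chosen with earlier results of these data known. Each member past the threshold or without overlap between diets, and the highest of each class by FPKM, was given with all its values. A gene of the list of other glutamate genes is counted there but not reported here by name. Alternatives were DESeq2, RLE scaling, other count filters, limma-voom, a replicate block, scaling on neuron markers and leaving out each brain.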

Additional observations from a re-analysis of the deposited data

Results flagged for a closer look

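Within 76 groups of 4 brains, each the log2 CPM of a tested member or the summed FPKM of a class in 1 diet, 1 value stood far from the others. *Grin2c* in CDD replicate 1 had a log2 CPM of 1.08, and the nearest of the other CDD brains had 0.618. Without that brain the log2 fold change of *Grin2c* was -0.76 (adjusted p = 0.0267, edgeR) instead of -0.62. Chance flags about 1 in 20 such groups.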

How the results depend on the processing

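Under DESeq2, RLE scaling, limma-voom, an unfiltered fit, a floor of 10 counts per brain and scaling on neuron markers, between 10 and 16 members were called lower and 0 higher, beside 14 and 0. DESeq2 and the unfiltered fit each called 16, gaining *Grik1* together with *Cnih2* or *Grin2b*. All genes called numbered 1710, and 818 with scaling on neuron markers, 2151 with DESeq2 and 1414 with limma-voom. Leaving out 1 brain gave 6 to 13 members called lower and 471 to 2495 genes called. The median log2 fold change of the kainate class was -0.0336 to -0.111 over these fits, beside -0.07. The labels do not say that a replicate number marks a shared dam or batch. Same-numbered brains had correlations of deviations from the group means of 0.105, -0.133, 0.117 and 0.232 for replicates 1 to 4, so 3 of 4 were above 0.1. The spread of such correlations without pairing was not computed, so they cannot decide whether the numbers mark pairs. The main fit did not take the numbers as pairs. With a replicate block, 14 members and 1812 genes were called. No member called lower changed direction in any of these fits. With 4 brains a diet and the number of dams not given, small differences in members of low count, such as *Grin2c* and *Grin3b*, are at the limit of this depth.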
